A study of Mus musculus with 16 samples.

Results

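The genes described here are 37 genes of fatty acid oxidation and of the response to peroxisome proliferator-activated receptors (PPARs), taken by symbol from 55487 genes counted in mouse hearts. The list was drawn up by function and not from the counts, although earlier results of these data were known when it was chosen. RNA came from left ventricles, cut at mid level, of 24-month-old C57Bl/6J mice, 8 multiparous mice with more than 3 pregnancies behind them and 8 virgin mice of the same age. No mouse received a treatment, and no transgene is named. Library names of multiparous mice carry either of 2 codes, MP (4 hearts) and P (4 hearts), and those of the virgin hearts all carry AA. The labels do not say what the codes mean, and since every virgin heart and no multiparous heart carries AA, that code and virginity cannot be told apart. All 37 genes passed the filter on low counts and were tested.

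The adult heart draws most of its fuel from long-chain fatty acids. They are taken up, activated to acyl-CoA, carried into mitochondria as carnitine esters and shortened by repeated rounds of dehydrogenation, hydration, a second dehydrogenation and thiolysis, with the electrons passed to the respiratory chain by the electron transfer flavoprotein. PPARα, a nuclear receptor that binds fatty acids and pairs with retinoid X receptors, switches on many of these genes, and a smaller set of them, such as Pdk4, Ucp3 and Angptl4, responds strongly to fasting.

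Reads assigned to genes numbered between 34560606 and 58890976 in 15 libraries and 228325238 in virgin 8. Summed levels of 10 cardiomyocyte markers were between 65687 and 76288 CPM (counts scaled to a fixed library total) in multiparous hearts and between 62309 and 80518 CPM in virgin hearts, as the tissue label has it. All 9 white and brown adipocyte markers had a mean under 1 CPM. Kidney tubule markers summed to 9.89 to 34.7 CPM in multiparous hearts and 20.5 to 115.04 CPM in virgin hearts, and liver markers to 5.06 to 339.2 CPM in multiparous hearts and 3.86 to 229.1 CPM in virgin hearts. Several genes described here are also transcribed in kidney and liver.

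No gene of the 37 passed the test between multiparous and virgin hearts (edgeR quasi-likelihood test, Benjamini-Hochberg adjustment over 17813 genes, threshold 0.05), and 0.0112% of all genes tested did. The lowest adjusted p among the 37 was 0.345, for Cpt1a. Without adjustment, 3 of the 37 had p under 0.05, which is 8.11% of them against 8.12% of all genes tested. Of these, 2 were higher (4.04% of all genes were) and 1 was lower (4.09% of all genes were). None of these 3 kept an unadjusted p under 0.05 with the summed kidney tubule markers as a covariate. The sum over the 12 markers was itself lower in multiparous hearts (median 16.5 CPM, against 53.9 CPM in virgin hearts), so covariate and group overlap. For Ehhadh and Acadl the SE was 0.08 and 0.06 without the covariate and 0.12 and 0.09 with it. The part of kidney RNA in the 3 differences was not tested. DESeq2 called 0 of the 37 (lowest adjusted p = 0.175) where it called 1.06% of the genes it adjusted, or 0.744% when given only the genes kept by the filter. For limma voom the count was 0 of the 37 (lowest adjusted p = 0.333) and 0.0168% of all genes. In no gene of the 37 did the multiparous and virgin values fail to overlap, and among all genes 0.0168% lay apart in each direction. All 10 cardiomyocyte markers were lower in multiparous hearts (median log2 fold change -0.07), 2 of them at an unadjusted p under 0.05 (edgeR). Of 9 fibroblast markers 7 were higher and 2 lower (median 0.19), with 4 higher at an unadjusted p under 0.05. All 8 macrophage markers were higher (median 0.12), and endothelial markers split 5 and 5. None of these markers passed the test, and the part of cell content was not tested. Since this is bulk tissue, fewer cells of a type and less RNA per cell cannot be told apart.

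The differences were also bounded. The 37 log2 fold changes (multiparous minus virgin) lay between -0.21 for Vnn1 and 0.29 for Angptl4, with a median of 0.02 beside -0.003 for all genes tested. For 35 of the 37 genes (94.6%) the 95% interval lay within 1.5-fold in either direction, as it did for 80.7% of all genes tested. The 2 intervals past 1.5-fold were those of Angptl4 and Vnn1, which are among the lowest in level. In sign, 24 of the 37 were higher in multiparous hearts, against 48.6% of all genes, and 31 were when libraries were scaled by their totals alone, a change of scale that moved the median of all genes by 0.03.

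**Figure D1:**
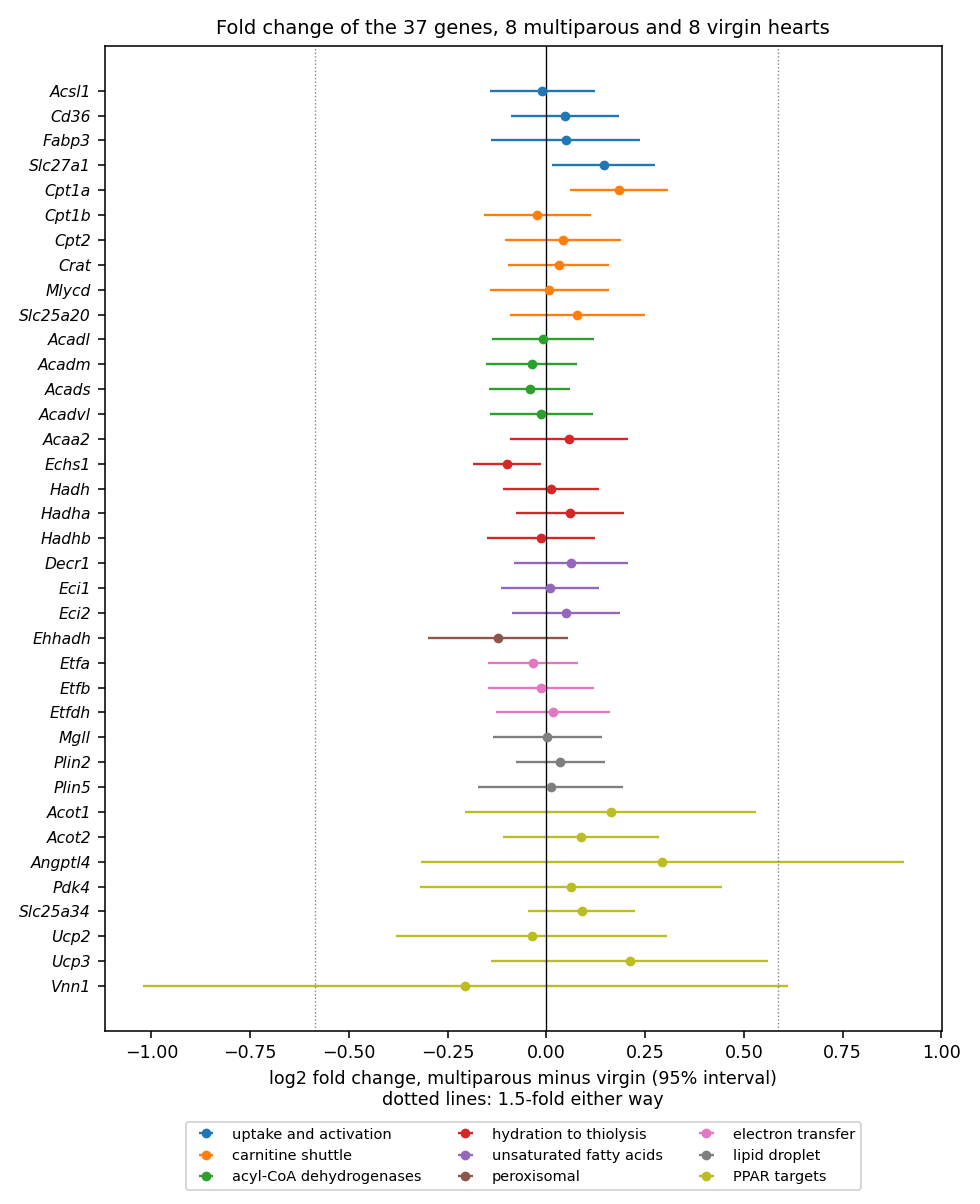
Log2 fold change (multiparous minus virgin) of each of the 37 genes with its 95% interval, from 8 hearts per group, coloured by role; dotted lines mark 1.5-fold. The points lie between -0.21 and 0.29, and the intervals that leave the dotted lines are those of Angptl4 and Vnn1.

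Fatty acid uptake and activation held the most abundant transcripts. Fabp3, the heart fatty acid binding protein of the cytosol, had the highest level per exon length, 2503 ± 383.4 FPKM (CPM divided by exon length in kilobases) in multiparous hearts and 2420 ± 251 FPKM in virgin hearts (SD, n = 8 each). Part of this level is uncertain, because 21.7% of its 100-base stretches also occur in the pseudogene Fabp3-ps1 and 19.6% of its exon bases are overlapped by genes on the other strand. Cd36, the fatty acid translocase of the cell surface, had 1538, 1857 and 2058 CPM (lowest, median, highest) in multiparous hearts and 1574, 1752 and 2021 CPM in virgin hearts. The ranges covered each other, with a log2 fold change of 0.05 (SE 0.06, adjusted p = 0.909). Acsl1, which joins coenzyme A to long-chain fatty acids, stood at 101.8 ± 8.14 FPKM in multiparous hearts and 102.5 ± 9.86 FPKM in virgin hearts.

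Slc27a1, a fatty acid transporter and acyl-CoA ligase, was 1 of the 3 genes with an unadjusted p under 0.05. It had 134.03, 146.5 and 162.0 CPM in multiparous hearts and 119.0, 124.4 and 154.7 CPM in virgin hearts. All 8 multiparous hearts lay above the virgin mean, but the ranges overlapped (log2 fold change 0.14, SE 0.06, unadjusted p = 0.0315, adjusted p = 0.555).

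The carnitine shuttle moves acyl groups across the inner mitochondrial membrane. Cpt1a (chr19:3322334-3385733, plus strand, GENCODE M21 on GRCm38), the liver-type carnitine palmitoyltransferase of the outer membrane, had 55.8, 63.4 and 70.4 CPM in multiparous hearts and 50.9, 53.6 and 63.1 CPM in virgin hearts. Every multiparous heart was above the virgin mean, and the upper virgin hearts reached into the multiparous range. The log2 fold change was 0.18 (SE 0.06, 95% interval 0.06 to 0.31, unadjusted p = 0.00610, adjusted p = 0.345). The muscle isoform Cpt1b, which predominates in heart, was the more abundant per exon length, at 27.5 ± 1.39 FPKM in multiparous hearts and 27.97 ± 3.51 FPKM in virgin hearts, where Cpt1a stood at 8.23 ± 0.728 and 7.24 ± 0.637 FPKM. Of the Cpt1b exon bases 81.4% are shared with Gm44502 on the same strand, so its count depends on how such reads were assigned.

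Cpt1b itself had 83.5, 93.6 and 98.9 CPM in multiparous hearts and 74.3, 94.0 and 111.3 CPM in virgin hearts. The virgin range enclosed the multiparous one (log2 fold change -0.02, SE 0.06, adjusted p = 0.965). Slc25a20, the carnitine-acylcarnitine carrier, had 135.9, 153.2 and 188.3 CPM in multiparous hearts and 118.8, 149.2 and 173.9 CPM in virgin hearts. These also overlapped widely (log2 fold change 0.08, SE 0.08, adjusted p = 0.860). Cpt2, which rebuilds acyl-CoA in the matrix, had a log2 fold change of 0.04, Crat, the acetyl-carnitine transferase, 0.03, and Mlycd, which degrades the Cpt1 inhibitor malonyl-CoA, 0.01.

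The 4 acyl-CoA dehydrogenases, which begin each round of oxidation, were all marginally lower in multiparous hearts and none passed the test. Acadl, for long chains, had 798.5, 884.5 and 1059 CPM in multiparous hearts and 796.9, 906.1 and 1002 CPM in virgin hearts. The groups covered nearly the same range (log2 fold change -0.01, SE 0.06, adjusted p = 0.988), and with libraries scaled by totals the sign of Acadl turned (0.03). Acadvl, for very long chains, had a log2 fold change of -0.01, Acadm, for medium chains, -0.04, and Acads, for short chains, -0.04. Of the Acadvl exon bases 42.9% lie opposite Dvl2.

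Differences at the later steps were of similar size. Hadha, the α subunit of the mitochondrial trifunctional protein, had 1147, 1271 and 1447 CPM in multiparous hearts and 1015, 1292 and 1349 CPM in virgin hearts. The groups overlapped over most of their length (log2 fold change 0.06, SE 0.07, adjusted p = 0.868). Hadhb, its β subunit, had a log2 fold change of -0.01, Hadh, the short-chain hydroxyacyl-CoA dehydrogenase, 0.01, and Acaa2, a mitochondrial thiolase, 0.06. Echs1, the short-chain enoyl-CoA hydratase, was the 1 gene lower in multiparous hearts at an unadjusted p under 0.05. Its values were 191.5, 201.9 and 212.1 CPM in multiparous hearts and 194.98, 215.9 and 239.2 CPM in virgin hearts. No multiparous heart lay above the virgin mean, yet the lower virgin hearts were inside the multiparous range (log2 fold change -0.10, SE 0.04, unadjusted p = 0.0241, adjusted p = 0.523).

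Enzymes that handle double bonds also differed little: Decr1, the dienoyl-CoA reductase, had a log2 fold change of 0.06, and the enoyl-CoA isomerases Eci1 and Eci2 had 0.01 and 0.05. Among the electron carriers, Etfa and Etfb, the 2 subunits of the electron transfer flavoprotein, had -0.03 and -0.01, and Etfdh, which passes their electrons to ubiquinone, had 0.02. Of the Etfb exon bases 58.2% are shared with Gm45233 on the same strand. Ehhadh, the bifunctional enzyme of peroxisomes, had 11.2, 12.8 and 14.996 CPM in multiparous hearts and 10.7, 14.3 and 17.0 CPM in virgin hearts. The virgin range enclosed the multiparous one (log2 fold change -0.12, SE 0.08, adjusted p = 0.777), and with the summed kidney tubule markers as a covariate the sign turned (0.07).

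At the lipid droplet, Plin2, a coat protein, had a log2 fold change of 0.04, Plin5, which tethers droplets to mitochondria, 0.01, and Mgll, the monoglyceride lipase, 0.002. The hearts of each group spanned 58.3 to 89.2 CPM of Plin5 in multiparous mice and 57.4 to 86.7 CPM in virgin mice, which are nearly the same range.

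Among the 8 genes filed here as PPAR targets, which are not themselves steps of oxidation, were the 6 genes that varied most from heart to heart. The label is a role within this list, and genes under the other roles can be PPAR targets as well. Pdk4, the kinase that shuts off pyruvate dehydrogenase, had 130.0, 260.4 and 421.8 CPM in multiparous hearts and 174.7, 256.0 and 341.9 CPM in virgin hearts. Multiparous hearts held both the lowest and the highest value (log2 fold change 0.06, SE 0.18, adjusted p = 0.966). Without multiparous 8, the highest, the log2 fold change was -0.06, and without virgin 7, the lowest of its group, -0.003. Ucp3, a mitochondrial carrier of muscle, had 23.7, 32.1 and 52.8 CPM in multiparous hearts and 24.5, 30.6 and 40.8 CPM in virgin hearts. Multiparous 2, 5 and 8 lay above every virgin heart, and the other 5 lay within or below the virgin range (log2 fold change 0.21, SE 0.17, adjusted p = 0.807).

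Angptl4, a secreted inhibitor of lipoprotein lipase, had 1.185, 3.95 and 5.06 CPM in multiparous hearts and 1.04, 3.32 and 4.53 CPM in virgin hearts. The groups shared most of their range (log2 fold change 0.29, SE 0.29, adjusted p = 0.850). Acot1, a cytosolic acyl-CoA thioesterase, had 4.31, 6.89 and 11.2 CPM in multiparous hearts and 3.61, 6.65 and 8.14 CPM in virgin hearts. Only multiparous 2 and 3 were above all virgin hearts (log2 fold change 0.16, SE 0.18, adjusted p = 0.868). Its mitochondrial paralog Acot2 had a log2 fold change of 0.09. Some reads of the pair cannot be placed, since 12.4% of the 100-base stretches of Acot1 and 17.1% of those of Acot2 occur in other thioesterase genes.

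Vnn1, a pantetheinase and a marked PPARα target of liver, was barely present, at 0.107, 0.309 and 0.696 CPM in multiparous hearts and 0.0742, 0.356 and 0.723 CPM in virgin hearts. The groups overlapped throughout (log2 fold change -0.21, SE 0.39, adjusted p = 0.941), and the sign turned with limma voom (0.04) and with the kidney covariate (0.40). Slc25a34, a mitochondrial carrier, had 110.6, 140.9 and 150.1 CPM in multiparous hearts and 115.1, 126.1 and 156.4 CPM in virgin hearts. Of the multiparous hearts 7 were above the virgin mean and 1 was below all virgin hearts (log2 fold change 0.09, SE 0.06, adjusted p = 0.785). Ucp2, a mitochondrial carrier found in many tissues, had a log2 fold change of -0.04 (SE 0.16).

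**Figure D2:**
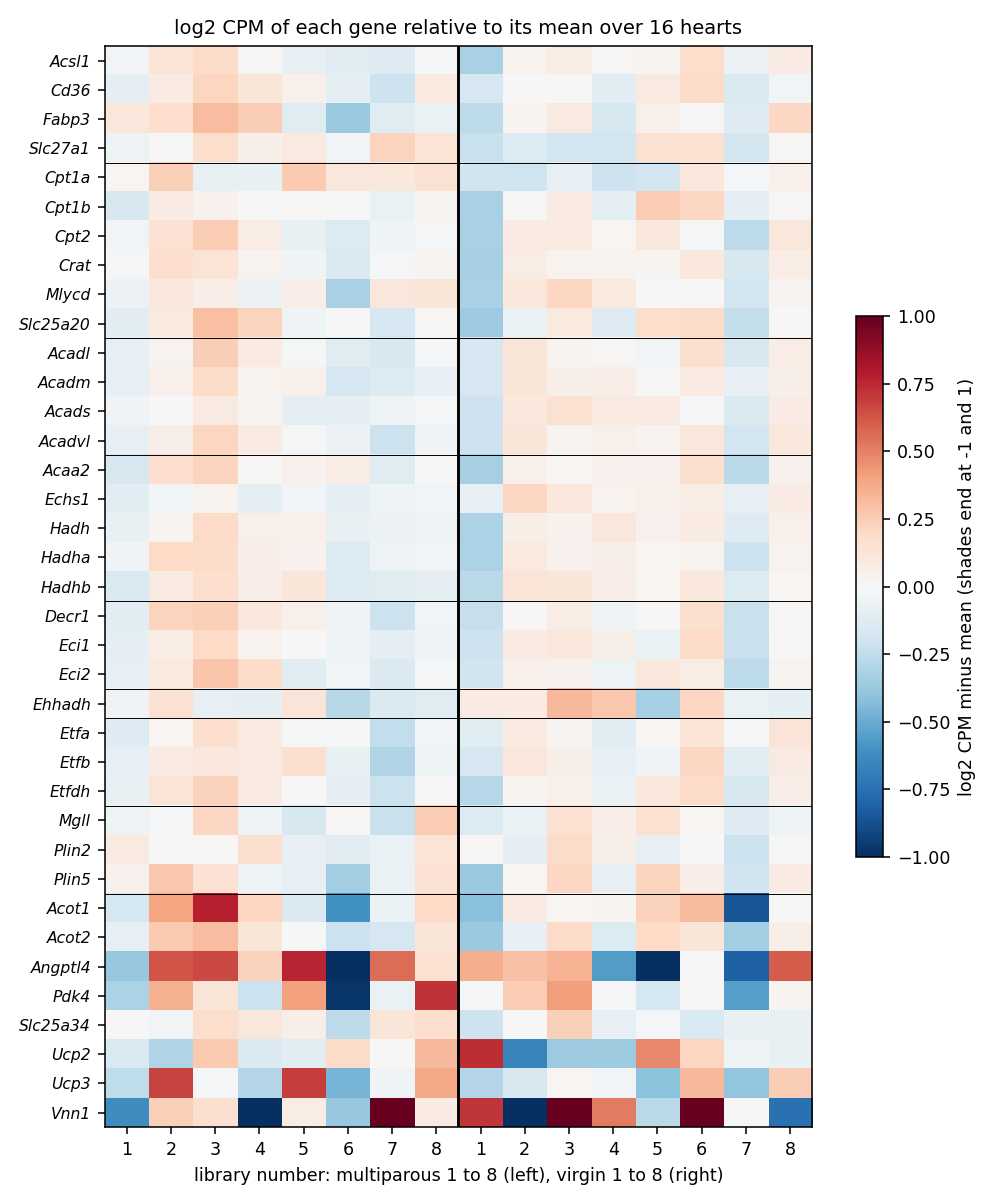
Log2 CPM of the 37 genes (rows, by role) in the 16 hearts (columns), each as its difference from the gene's mean, multiparous 1 to 8 on the left and virgin 1 to 8 on the right. Virgin 1 and 7 are pale blue over most rows and multiparous 3 is pale red, while the PPAR targets at the bottom show the deepest shades.

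Many of the enzymes moved together from heart to heart within both groups. Over the 37 genes, the median difference from a gene's own mean was 0.19 on the log2 scale in multiparous 3, the highest of its group, and -0.10 in multiparous 6, the lowest. In virgin hearts it was 0.11 in virgin 6, -0.16 in virgin 7 and -0.20 in virgin 1. Virgin 7 was under the mean in all 37 genes, virgin 1, multiparous 1 and multiparous 6 in 32 each, and multiparous 7 in 31. Virgin 1 had the lowest cardiomyocyte marker sum of all hearts, 62309 CPM, and multiparous 6 the next lowest, 65687 CPM. Multiparous 8 followed at 66050 CPM, with a median difference of -0.0003. Multiparous 7 had 69389 CPM, virgin 7 had 71402 CPM and multiparous 1 had 73481 CPM. The part of cardiomyocyte content in these levels was not tested. Without virgin 1 the median log2 fold change of the 37 genes was -0.01, and without multiparous 6 it was 0.05, with no gene called in either fit.

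The spread between hearts of a group was wider for 6 of the 8 genes filed as PPAR targets than for any other of the 37 genes. This describes these genes and not PPAR targets at large, since genes under other roles can be PPAR targets too. The within-group SD of log2 CPM had a median of 0.141 over the 37 genes, against 0.172 over all genes tested and 0.102 over the 8445 genes with a mean of at least 10 CPM. It was 0.0772 for Echs1, the lowest of the 37. It was 0.814 for Vnn1, 0.710 for Angptl4, 0.423 for Pdk4, 0.399 for Acot1, 0.372 for Ucp3 and 0.366 for Ucp2. The rest of the 8, Acot2 at 0.211 and Slc25a34 at 0.139, lay closer to the enzymes. Pdk4, Ucp2 and Ucp3 were so variable at 10 CPM or more, where counting error is small.

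**Figure D3:**
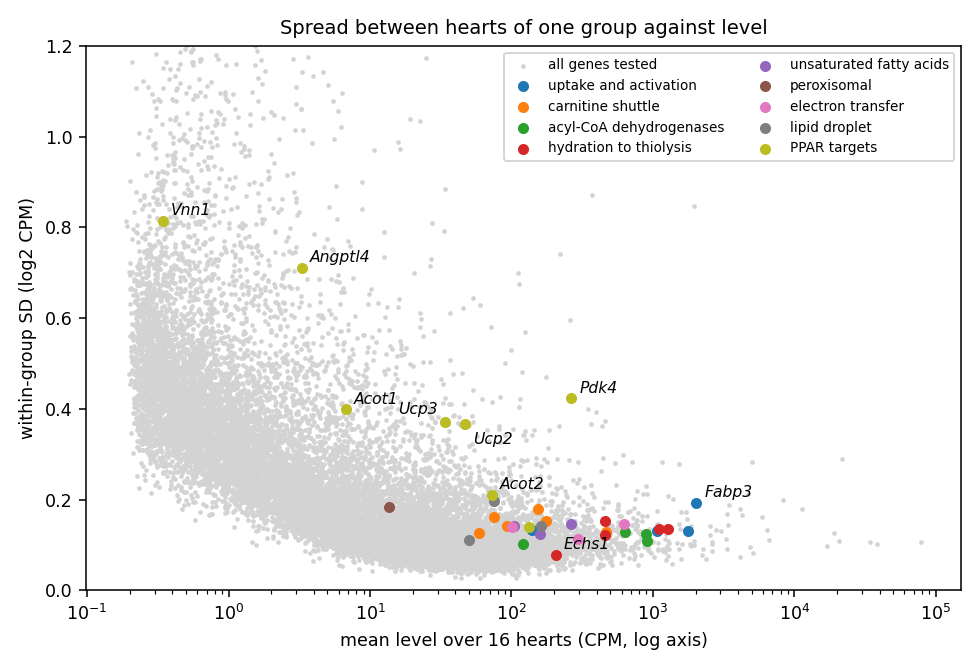
Within-group SD of log2 CPM (vertical) against mean CPM over 16 hearts (horizontal, log axis) for all genes tested (grey, those over 1.2 not drawn) and the 37 genes (coloured by role). Most of the 37 lie between 0.0772 and 0.2, and Vnn1, Angptl4, Pdk4, Acot1, Ucp2 and Ucp3 stand above them.

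Pdk4, chosen as an anchor because it responds to fasting, was set against the other 36 genes and 8 further genes across the 16 hearts, with group means subtracted and 100000 permutations within groups (two-sided, 44 relations). In 3 of the 44 the adjusted p was under 0.05, all of them among the 36. Ucp3 had r = 0.757 (permutation adjusted p = 0.0409, rho = 0.835), Mlycd r = 0.752 (permutation adjusted p = 0.0383, rho = 0.803) and Angptl4 r = 0.701 (permutation adjusted p = 0.0428, rho = 0.650). By rho, the permutation adjusted p was 0.00587 for Ucp3 and 0.00528 for Mlycd but 0.0819 for Angptl4. Within multiparous hearts r was 0.852 for Ucp3, 0.899 for Mlycd and 0.786 for Angptl4 (exact permutation p = 0.00471, 0.00275 and 0.0230, unadjusted). Within virgin hearts it was 0.483, 0.638 and 0.643 (exact permutation p = 0.228, 0.0891 and 0.0889, unadjusted), with rho = 0.690, 0.857 and 0.619. Without the 2 hearts farthest from the median of Pdk4, multiparous 6 and 8, r was 0.721, 0.621 and 0.675 for Ucp3, Mlycd and Angptl4, and none of the 44 passed with the 14 hearts left (permutation adjusted p = 0.160 for Ucp3 and Angptl4 and 0.210 for Mlycd). With the means of the 3 library codes subtracted in place of the group means, r was 0.761 for Ucp3, 0.745 for Mlycd and 0.691 for Angptl4, and the permutation adjusted p was 0.0539, 0.0539 and 0.105, so that none passed. The codes, with 4 hearts each for MP and P, are too small for values of their own. The hydratase Echs1 had r = 0.559 (permutation adjusted p = 0.0613) and rho = 0.771 (permutation adjusted p = 0.00528).

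**Figure D4:**
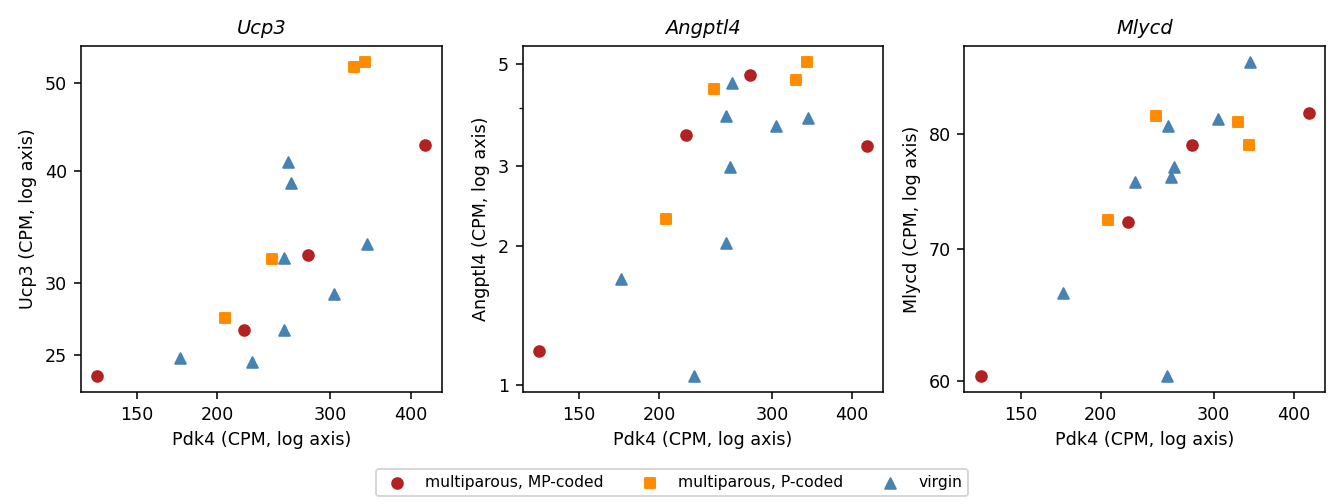
Ucp3, Angptl4 and Mlycd (CPM, log axis) against Pdk4 (CPM, log axis) in each heart, multiparous hearts by library code and virgin hearts. In each panel the heart with the lowest Pdk4, an MP-coded multiparous heart at 130.0 CPM, is at or near the bottom.

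The starts of 31 of the 37 genes had an entry in a table of RefSeq promoters (250 bases before to 50 after the start, GRCm38.p6). The hexamer AGGTCA, the half-site of nuclear receptors, was searched on both strands. It was present in 10 of the 36 windows of these genes, those of Acadm, Acadvl, Cd36, Cpt1a, Echs1, Plin2, Plin5, Slc25a34 and Ucp3 (27.8%), and in 16.3% of all 32851 windows. The spaced repeat AGGTCANAGGTCA was in none of the 36 and in 13 of all windows. A match is a description of the letters in the window and not a site. The windows of Ucp3 and Pdk4 are shown because Ucp3 had the highest r with Pdk4 across the 16 hearts. That relation did not pass without the 2 farthest hearts or with code means subtracted. AGGTCA is in capitals in either direction, and Ucp3 holds 2 and Pdk4 holds 0. Mlycd, at nearly the same r, has no AGGTCA in its window, which is not shown.
Ucp3 (chr7:100472741-100473040, plus strand): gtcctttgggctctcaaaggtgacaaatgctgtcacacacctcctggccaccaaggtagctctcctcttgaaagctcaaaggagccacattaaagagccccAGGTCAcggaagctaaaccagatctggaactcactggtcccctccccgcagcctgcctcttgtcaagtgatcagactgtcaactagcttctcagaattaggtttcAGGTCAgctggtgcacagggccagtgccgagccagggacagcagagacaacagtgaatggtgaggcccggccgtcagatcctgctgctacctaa
Pdk4 (chr6:5496229-5496528, minus strand): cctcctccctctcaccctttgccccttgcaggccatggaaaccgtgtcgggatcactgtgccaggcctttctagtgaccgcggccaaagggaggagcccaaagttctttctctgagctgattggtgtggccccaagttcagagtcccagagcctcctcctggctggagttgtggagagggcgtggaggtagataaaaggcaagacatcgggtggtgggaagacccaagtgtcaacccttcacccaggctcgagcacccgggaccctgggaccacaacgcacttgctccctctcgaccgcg

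Hadha and Hadhb, which encode both subunits of the trifunctional protein, lie head to head on chromosome 5, with RefSeq starts 273 bases apart. Across hearts their levels had r = 0.923 and rho = 0.803 (permutation adjusted p = 4.5e-05 for r and 0.000645 for rho, 3 pairs of neighbouring genes, chosen after the annotation was seen). Without the 2 hearts farthest from the median of Hadha r was 0.868. Many of the enzymes moved together from heart to heart, and whether neighbouring genes do so more than distant ones was not tested. The window of Hadhb is shown because 228 of its bases are also in that of Hadha, read from the other strand; AGGTCA is absent from it.
Hadhb (chr5:30155003-30155302, plus strand): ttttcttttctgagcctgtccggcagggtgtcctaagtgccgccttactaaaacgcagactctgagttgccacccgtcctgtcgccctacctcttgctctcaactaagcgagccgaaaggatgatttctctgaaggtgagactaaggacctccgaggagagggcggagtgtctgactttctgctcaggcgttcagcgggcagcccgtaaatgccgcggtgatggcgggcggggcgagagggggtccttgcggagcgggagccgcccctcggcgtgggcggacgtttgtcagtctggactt

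The other pairs of neighbours differed from each other. Acot1 and Acot2 had r = 0.871 and rho = 0.838 (permutation adjusted p = 3e-05 for r), and 0.832 without the 2 farthest hearts, and the part of shared reads in this was not tested. Ucp2 and Ucp3 had r = -0.221 (permutation adjusted p = 0.347) and rho = -0.206, so no relation was detectable with 16 hearts.

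Within the multiparous hearts, MP-coded and P-coded libraries were compared. No gene of the 37 passed (edgeR, adjusted over 18123 genes), where 0.121% of all genes did. Without adjustment 3 had p under 0.05 (8.11%, against 11.0% of all genes), all higher in MP-coded hearts (5.93% of all genes). No gene of the 37 kept the codes apart, as 2.96% of all genes did with MP-coded hearts above and 2.92% with them below. The 3 were Ucp2 (log2 fold change 0.31, SE 0.10, adjusted p = 0.265), Mgll (0.23) and Slc25a20 (0.20). DESeq2 called 0, with a lowest adjusted p of 0.117, and voom called 0, with a lowest of 0.323. Of the 37 genes 27 were higher in MP-coded hearts (50.6% of all genes), with a median log2 fold change of 0.05 beside 0.002 for all genes. That count was 17 without multiparous 3, an MP-coded heart, and between 23 and 31 when 1 of the other hearts was left out. Of the 8 PPAR targets 4 were higher and 4 lower in MP-coded hearts, with a median of -0.03. The lower ones were Pdk4 (-0.09), Ucp3 (-0.39), Angptl4 (-0.36) and Vnn1 (-0.65). The higher ones were Ucp2 (0.31), Acot1 (0.22), Acot2 (0.09) and Slc25a34 (0.02), and none of the 8 passed the test.

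Some glucocorticoid-induced genes, listed because hormones of stress and fasting act on the same targets, did differ between the codes. Of 12 listed, 4 passed the edgeR test, where 0.121% of all genes did, and all 4 were higher in MP-coded hearts. They included Zbtb16, a transcription factor (log2 fold change 1.193, adjusted p = 0.000578), and the co-chaperone Fkbp5 (0.89, adjusted p = 0.0366). The others were the metallothioneins Mt2 (1.27, adjusted p = 0.0021) and Mt1 (0.57, adjusted p = 0.0102). With libraries scaled by totals the adjusted p of Fkbp5 was 0.0506. With 1 heart left out, Fkbp5 missed the threshold without multiparous 1, 3, 4, 7 or 8 (adjusted p between 0.0638 and 0.147), and Mt1 did without multiparous 1 (0.0632) or 7 (0.0525). Markers of other tissues were set beside these genes. Of 12 kidney tubule markers 6 were tested, all higher in MP-coded hearts, 3 past the edgeR test (among them Kap, log2 fold change 3.91, adjusted p = 0.0102). Kap had 0.844 to 2.18 CPM in MP-coded and 0.0376 to 0.184 CPM in P-coded hearts. A marker so low in P-coded hearts passes the filter only through the MP-coded hearts and could only come out higher in them. The count of 6 was therefore partly set by the filter. The sum of all 12 was 16.1 to 34.7 CPM in MP-coded and 9.89 to 17.0 CPM in P-coded hearts. All 10 liver markers tested were lower in MP-coded hearts, none past the test (median log2 fold change -3.73), with sums of 7.07 to 39.2 CPM in MP-coded and 5.06 to 339.2 CPM in P-coded hearts. All 8 macrophage markers tested were higher in MP-coded hearts, none past the test (median 0.25), with sums of 352.6 to 535.0 CPM in MP-coded and 296.0 to 394.4 CPM in P-coded hearts. The part of these markers in the result was not tested. Between multiparous and virgin hearts none of the 12 glucocorticoid-induced genes passed, with Zbtb16 at 0.36 and Fkbp5 at 0.05. With P-coded hearts alone against virgin hearts Zbtb16 was at -0.35 and Fkbp5 at -0.46.

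The regulators and neighbouring pathways gave no call between multiparous and virgin hearts with edgeR (0 of 94 listed genes tested, 5 at an unadjusted p under 0.05), and DESeq2 and limma voom called 0 as well. Of 16 receptors and coregulators, 11 were higher (median log2 fold change 0.02). Ppara had 65.0, 73.4 and 80.3 CPM in multiparous hearts and 60.2, 68.2 and 82.6 CPM in virgin hearts, with a log2 fold change of 0.05 (adjusted p = 0.881). Ppargc1a, a coactivator, was at 0.02 and the nuclear receptor Esrra at -0.01, which turned to 0.03 with scaling by totals. Rxra, the partner receptor, was at 0.11 (SE 0.04, unadjusted p = 0.0076, adjusted p = 0.358), and the corepressor Ncor1 at 0.07. Of 14 peroxisomal and microsomal genes 11 were higher (median 0.02), with Ech1 and Cyp4b1 both at 0.10.

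Genes of triglyceride handling split evenly, with 7 higher and 8 lower of 15 tested (median -0.05). The 2 with the lowest p were Lipe, hormone-sensitive lipase, and G0s2, an inhibitor of the other main triglyceride lipase. Lipe had 38.2, 46.7 and 55.3 CPM in multiparous hearts and 34.6, 41.4 and 48.8 CPM in virgin hearts, which overlap (log2 fold change 0.25, SE 0.08, adjusted p = 0.315). G0s2 was at 0.29 (SE 0.10, adjusted p = 0.402). Of 16 tested genes for carnitine, acyl-CoA and malonyl-CoA supply, 5 were higher and 11 lower (median -0.03), with the acyl-CoA ligase Acsl6 at -0.14 and the kinase subunit Prkaa2 at -0.09.

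The 7 genes of ketone and acetyl-CoA use had a median log2 fold change of -0.04, with Bdh1, a ketone body dehydrogenase, at -0.17 (SE 0.08, adjusted p = 0.613). Among 14 clock genes 10 were higher (median 0.17), with Nr1d2 at 0.27 and Cry1 at -0.15; of the glucocorticoid-induced genes Cdkn1a was at -0.26 and Tsc22d3 at 0.14.

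**Figure D5:**
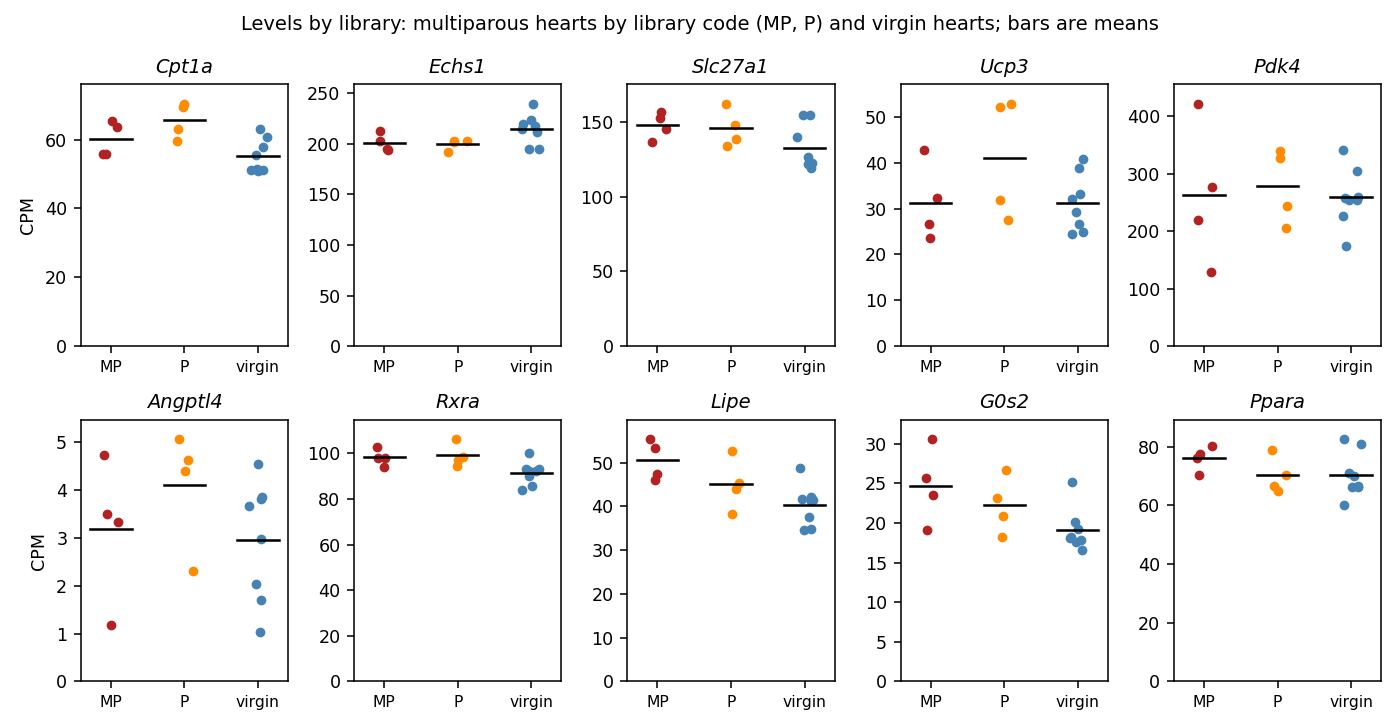
CPM of 10 genes in each heart, multiparous hearts by library code (MP, P) and virgin hearts, with bars at the means and axes from 0. Cpt1a and Slc27a1 sit somewhat higher and Echs1 lower in multiparous hearts, and in every panel the multiparous and virgin points overlap.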

How the data were processed

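Left ventricular RNA of 16 mice was sequenced, per the labels' protocols with a stranded total RNA kit and paired reads of 150 bases. The submitters' processing notes list STAR 2.7.11b, HTSeq 0.11.1, SAMtools 1.19.2, cutadapt 4.8, Trim Galore 0.6.10, FastQC 0.12.1 and bcl2fastq 2.20 with GRCm38.p6. Which annotation was counted, and with what strand option, is not given in the sources used here, so overlapping and antisense genes are uncertain. The authors deposited raw counts per gene for each library. Reads assigned to no gene (26.5% to 33.1% per library) stayed out of totals and tests.

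The test was run in R 4.3.3 with edgeR 4.0.16 (TMM factors, filterByExpr, quasi-likelihood F-test on group, Benjamini-Hochberg adjustment over all genes tested, threshold 0.05). DESeq2 1.42.0 and limma 3.58.1 (voom) were alternatives. DESeq2 was run first on all counted genes and then, as an alternative added after that result was seen, on the genes kept by the filter. CPM values carry TMM factors, and FPKM values divide them by exon length in GENCODE M21, in which all 37 identifiers were found. Log2 CPM for spread and correlation used a prior count of 2. The code was tested on simulated data.

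The 37 genes, the context and marker lists, the tests and the rule for genes described in full (smallest p, largest spread, and several named by function) were chosen with earlier results of these data known. Nothing in the labels says that libraries are separate litters or cages, and p-values describe only how these hearts varied. No 2 libraries of a group agreed within sampling noise (lowest chi-square per degree of freedom 9.85 over 56 pairs). Alternatives left out each library, changed the scaling, the filter, the dispersion and the tool, added the replicate number or kidney markers, and took each library code alone. A result of the context lists is not reported here.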

Additional observations from a re-analysis of the deposited data

Results flagged for a closer look

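Of 74 sets of 8 values (37 genes in 2 groups), 4 held a heart that stood far from the others of its group, where chance flags about 1 in 20 sets. Mlycd in multiparous 6 was at 60.3 CPM, with the next at 72.2 CPM; this heart also had the lowest Pdk4. Hadh in multiparous 3 was at 521.9 CPM, with the next at 472.7 CPM. Vnn1 in multiparous 7 was at 0.696 CPM, with the next at 0.345 CPM. Slc25a34 in virgin 3 was at 156.4 CPM, with the next at 132.9 CPM.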

How the results depend on the processing

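None of the 37 genes was called between multiparous and virgin hearts, or between MP-coded and P-coded hearts, under any alternative run. The next counts are of values for the genes described in full and the context genes named with them, and not for all 37. Between multiparous and virgin hearts there were 467 such values under alternatives other than leaving out a library. Of these 445 kept their direction, 22 reversed and 0 crossed the threshold. Between the codes, of 179 such values 176 kept their direction and side of the threshold, 2 reversed and 1 (Fkbp5 with library totals) crossed it. DESeq2 called 254 genes of all genes when run on all counted genes and 130 when run on the genes kept by the filter, a second run added after the first was seen; both called 0 of the 37. The count over all genes was otherwise 2 with edgeR, 3 with voom, 56 without a filter, 33 with the replicate block, 97 with P-coded hearts alone, and 0 with MP-coded hearts alone, the kidney covariate, library totals, robust dispersion or without the 3 hearts highest in Alb. Between the codes it was 22 with edgeR, 368 and 295 with DESeq2 on all and on filtered genes, 13 with voom, 7 with library totals and 11 at a mean of at least 1 CPM. The labels do not say that replicate numbers pair the hearts, and pairing was not tested. Correlations of hearts with the same number were between -0.106 and 0.291, with 1 of 8 over 0.1. Of the 16 libraries, 4 were closest to their own number. With the replicate block 0 of the 37 were called, at a median of 0.014.

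The median log2 fold change of the 37 genes was between -0.01 and 0.05 with 1 library left out, and between -0.008 and 0.09 for the library codes. With 1 library left out, between 1 and 4 of the 37 had an unadjusted p under 0.05 (1 without virgin 2). With MP-coded hearts alone 0 did, and with P-coded hearts alone 1 did. With the kidney covariate 1 did, and it was Plin2 (edgeR adjusted p = 0.822), not Cpt1a, Echs1 or Slc27a1. That covariate overlapped with group, and the part of kidney RNA was not tested. With 1 library left out, edgeR called between 0 and 55 of all genes between multiparous and virgin hearts (0 in 9 of 16 fits, 24 without multiparous 3, 23 without virgin 1, 33 without virgin 5 and 55 without virgin 7, beside 2 with all) and between 3 and 197 between the codes (3 without multiparous 1 or 7, 7 without multiparous 2 or 3, 197 without multiparous 5). Of the 37 genes, between 17 and 30 were then higher in multiparous hearts. Genes correlated with Pdk4 numbered 0 without the 2 farthest hearts, 0 with code means and 3 with library totals (adjusted p = 0.0446 for each).

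Over all 37 genes, 24 were higher in multiparous hearts in the main fit. That count was 31 with library totals or the kidney covariate, 29 with MP-coded hearts alone and 17 with P-coded hearts alone. Signs of single genes were followed only for those described in full and the context genes named with them. Among these, the values that turned sign were as follows, and the cause was not tested. With MP-coded hearts alone Cpt1b was 0.0025, Acadl was 0.046 and Esrra was 0.0036. With P-coded hearts alone Slc25a20 was -0.025, Vnn1 was 0.060, Cd36 was -0.024, Ppara was -0.0087, Tsc22d3 was -0.020, Zbtb16 was -0.35, Fkbp5 was -0.46, Mt1 was -0.28 and Mt2 was -0.53. With the kidney covariate Ehhadh was 0.073, Vnn1 was 0.40, Acadl was 0.056 and Ncor1 was -0.0023. With library totals Cpt1b was 0.015, Acadl was 0.025 and Esrra was 0.025. With voom Vnn1 was 0.043. Without multiparous 1, 2 and 7, which had the highest Alb, Cpt1b was 0.00028 and Acadl was 0.033. Between the codes Ppargc1a was -0.0015 with voom and -0.00054 at a mean of at least 1 CPM. With 1 library left out, signs turned in some fits for these: between multiparous and virgin hearts Pdk4 between -0.057 and 0.17, Cpt1b between -0.066 and 0.015, Acadl between -0.048 and 0.015, Ppargc1a between -0.00074 and 0.066, Esrra between -0.036 and 0.011, Fkbp5 between -0.028 and 0.15 and Mt1 between -0.036 and 0.078; between the codes Echs1 between -0.018 and 0.030, Slc27a1 between -0.018 and 0.075, Slc25a34 between -0.020 and 0.11, Pdk4 between -0.42 and 0.14, Acot1 between -0.036 and 0.42, Hadha between -0.071 and 0.042, Ppargc1a between -0.052 and 0.050, Esrra between -0.016 and 0.052, Rxra between -0.036 and 0.021, Acsl6 between -0.030 and 0.12, Bdh1 between -0.052 and 0.14 and Cdkn1a between -0.0028 and 0.34.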
